A study of Drosophila melanogaster with 6 samples.

Results

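The genes described here encode the nuclear subunits of Complex II to V of oxidative phosphorylation (OXPHOS), with cytochrome c. They were chosen by gene symbol: Sdh followed by A, B, C or D, symbols beginning with UQCR, COX4 to COX8 or ATPsyn, and RFeSP, Cyt-c1, ox, blw, cype, levy, sun, Cyt-c-p and Cyt-c-d. This gave 49 of the 17494 genes counted, of which 36 are canonical subunit genes and 13 are paralogues of these. Mitochondrially encoded subunits were not included in the set. No measured value entered this rule, but the genes were chosen with earlier results of these data known.

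The mitochondrial respiratory chain passes electrons from nutrients to oxygen. Complex II (succinate dehydrogenase) feeds electrons from succinate into ubiquinone, Complex III hands them to the mobile carrier cytochrome c, and Complex IV (cytochrome c oxidase) reduces oxygen. Complexes III and IV pump protons, and Complex V (ATP synthase) lets the protons flow back through a rotating ring to make ATP. Insect flight muscle is among the tissues richest in these complexes, and its precursors are myoblasts attached to the wing disc.

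M1BP (Motif-1-binding protein) is a transcription factor that recognises Motif 1, an element of core promoters, and the libraries address whether these genes depend on it before the muscle forms. PolyA RNA was sequenced from wing disc myoblasts at 0 h after puparium formation (APF) from animals raised at 25 °C. All animals carried Mef2-GAL4 and UAS-GFP::Gma. The 3 WT libraries had no RNAi construct, and the 3 M1BP RNAi libraries also expressed UAS-M1BP RNAi #1 under Mef2-GAL4, a driver active throughout the muscle lineage. Each sample pooled 30 to 35 discs, from which cells were sorted by viability, size and GFP, and 1 RNAi line was used. Libraries held between 43086545 and 51855156 counted reads. Counts of M1BP were 5821, 5288 and 5589 in WT against 1386, 1703 and 1671 in M1BP RNAi, so that 30.5% of the WT level remained (edgeR, -1.71 ± 0.100 SE on the log2 scale, adjusted p 1.4e-05). The 6 myoblast markers (twi, zfh1, Him, Mef2, ct and htl) summed to between 9126 and 10422 CPM (counts scaled to a fixed library total) in WT and between 9065 and 9816 CPM in M1BP RNAi. The 5 markers of the disc epithelium summed to between 901 and 1086 CPM in WT and between 840 and 922 CPM in M1BP RNAi. The 5 haemocyte markers (Hml, NimC1, srp, Pxn and He) did not overlap between genotypes, at 25.4 to 37.0 CPM in WT and 18.7 to 23.8 CPM in M1BP RNAi. The 4 tracheal markers (trh, Osi17, serp and verm, with Osi17 at or under 3 reads) were at 17.4 to 42.2 CPM in WT and 11.7 to 21.6 CPM in M1BP RNAi, those of differentiated muscle at 301 to 435 and 377 to 463 CPM, and those of neurons at 30.9 to 33.2 and 27.9 to 32.5 CPM. Fat body markers summed to at most 0.393 CPM. The part of these cells in the values below was not tested.

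Motif 1 is the sequence bound by M1BP, so the matches to it at these promoters are shown first. The study's supplementary list of Motif 1 matches gives an 18-base match for some of the subunit genes, and 8 of them contain the core GGTCACACT without a mismatch. The 6 below lie on chromosome arms 2L and 3R, are written in the direction of the motif, and carry the core in capitals. COX4, COX5A and COX5B encode subunits of Complex IV, RFeSP the Rieske iron-sulphur protein of Complex III, ATPsynC the ring of Complex V and ATPsynD a part of its peripheral stalk.
COX4: gatgtGGTCACACTtctc
COX5A: attgcGGTCACACTgcat
COX5B: accgcGGTCACACTgatc
RFeSP: agtgcGGTCACACTggtt
ATPsynC: gttatGGTCACACTgcgc
ATPsynD: gggtcGGTCACACTatca

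The bases on either side of the core differed between these genes. The other 2 genes with an exact core were ox and UQCR-6.4. How often the core occurs at promoters of all genes was not analysed here, and a match is a description and not a binding site. The median difference of M1BP RNAi from WT, on the log2 scale, was 0.08 for the 8 genes with an exact core and 0.09 for the 28 other canonical genes. Some of these 28, such as COX8 and sun, have a listed match with a mismatch in the core, so they are not a set without the motif. None of the 36 passed an adjusted p of 0.05 in edgeR.

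In WT myoblasts all 36 canonical genes were expressed, with at least 646 reads in every library. Levels are given as RPKM (reads scaled by library size and exonic length), which allows comparison between genes. The median WT level was 149 RPKM, and it was 13.0 RPKM over all 10306 genes with enough reads to be tested. The 49 genes together took between 1.09% and 1.27% of the counts of a library.

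**Figure D1:**
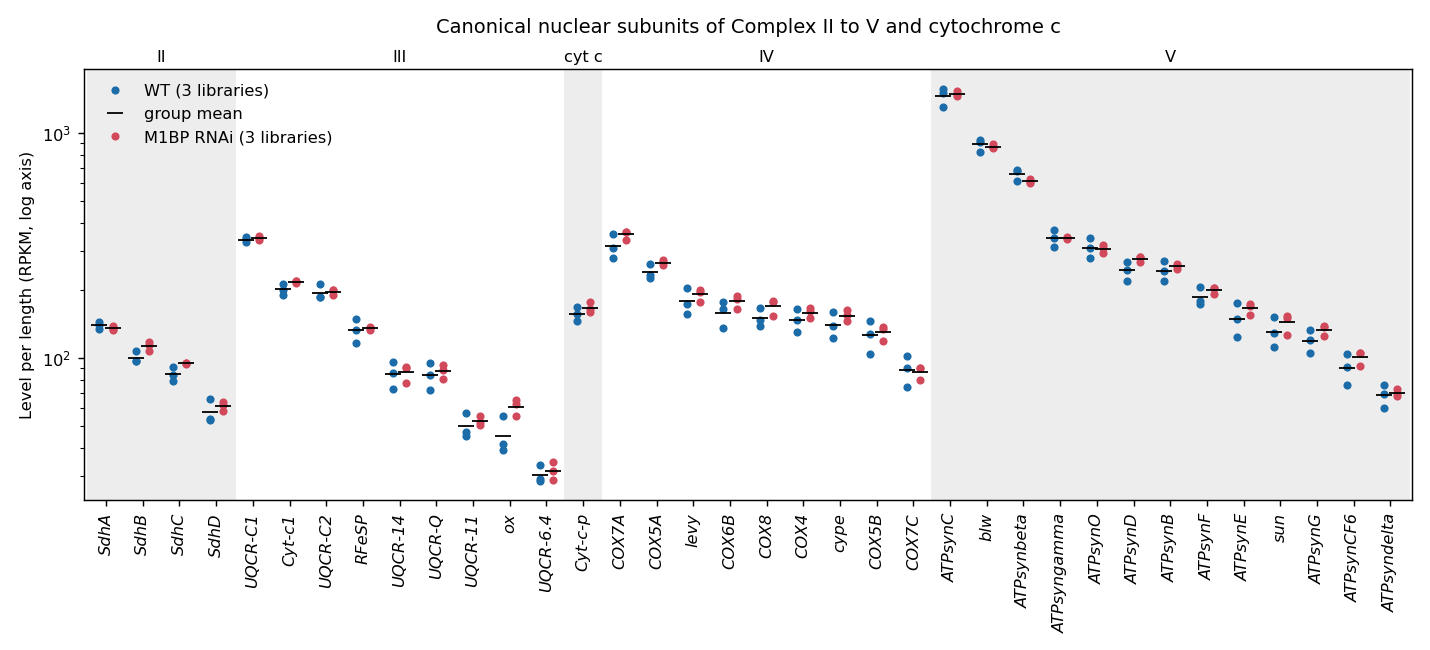
Level per length (RPKM, log axis) of the 36 canonical genes, by complex, in the 3 WT (blue) and 3 M1BP RNAi (red) libraries, with group means as black dashes. Levels range from ATPsynC at 1464 RPKM to UQCR-6.4 at 30.4 RPKM in WT.

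Complex V had the highest transcripts. ATPsynC, which forms the membrane ring, stood at 1464 ± 138 RPKM in WT and 1494 ± 38.5 RPKM in M1BP RNAi (SD, n = 3). It was followed by the catalytic subunits of the F1 head, blw (alpha) at 890 ± 54.8 RPKM and ATPsynbeta at 660 ± 40.9 RPKM in WT. In the assembled enzyme the ring and the F1 alpha and beta subunits are the ones present in several copies. The lowest was ATPsyndelta, of the foot of the rotor shaft, at 68.4 ± 8.06 RPKM, 21.4-fold below ATPsynC. Its annotated exonic length of 3817 bases is the longest of the set, and by counts without length the lowest gene of Complex V was sun, which encodes F1 epsilon.

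The other complexes spread less. Within Complex IV the WT levels ran from COX7C at 89.0 ± 13.9 RPKM to COX7A at 315 ± 39.7 RPKM, a 3.54-fold range. In Complex II they ran from SdhD, a membrane anchor, at 57.6 ± 7.25 RPKM to SdhA, the flavoprotein that oxidises succinate, at 140 ± 5.22 RPKM, a 2.43-fold range. In Complex III they ran from UQCR-6.4, a small accessory subunit, at 30.4 ± 2.69 RPKM to UQCR-C1, a core protein, at 336 ± 7.90 RPKM, an 11.1-fold range. In M1BP RNAi the ranges were 21.3-fold for Complex V, 4.08-fold for Complex IV, 2.21-fold for Complex II and 10.8-fold for Complex III. The same genes were highest and lowest per length in both genotypes.

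Of the 49 genes, 41 had enough reads to be tested, and 0 of them differed between genotypes at an adjusted p of 0.05 in edgeR, where 4.09% of all tested genes did. None was among the 0.475% of tested genes past the stricter threshold of the study, an adjusted p of 0.001 with a 1.5-fold change. The smallest adjusted p among the 41 was 0.0786. In sorted pools such as these, fewer cells of a type and less RNA per cell cannot be told apart. At an unadjusted p under 0.05, 6 of the 41 were higher in M1BP RNAi, where 10.1% of all tested genes were, and 0 were lower, where 10.1% were. With DESeq2, 1 of the 41, ox, passed with an adjusted p of 0.0490, where 859 of all 10306 tested genes passed 0.05. In DESeq2 6 of the 41 had an unadjusted p under 0.05, where 2077 of the 10306 did.

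**Figure D2:**
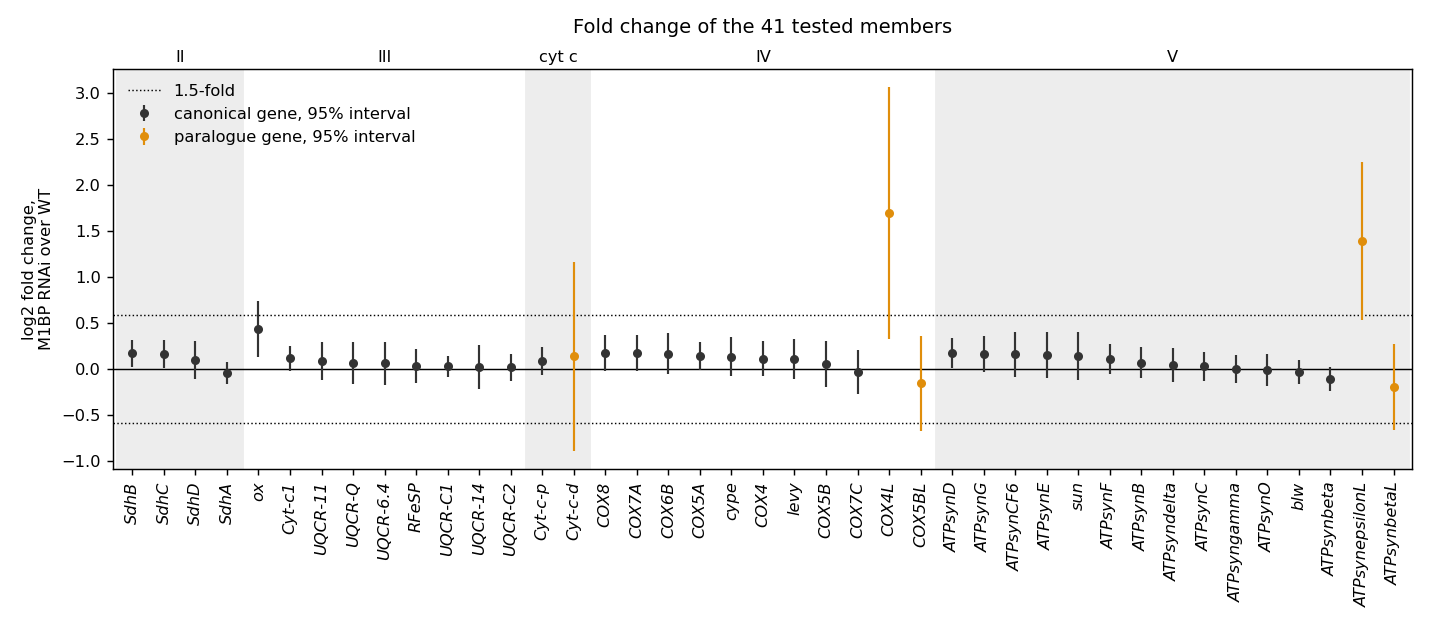
Difference of M1BP RNAi from WT (log2) of the 41 tested genes by complex, with 95% intervals (edgeR), canonical genes in black and paralogues in orange, and dotted lines at 1.5-fold. Canonical genes lie between -0.11 and 0.43, and the wide intervals belong to paralogues with few reads.

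The intervals limit how large a difference could have gone unseen. For 35 of the 36 canonical genes, all but ox, the 95% intervals of the fold change lay between 0.829-fold and 1.32-fold of WT, which leaves out a change of 1.5-fold in either direction. For ox the interval reached 1.66-fold. The intervals were fitted gene by gene and are not adjusted for the number of genes.

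The point estimates lay mostly above 0. Of the 41 tested genes 33 were higher in M1BP RNAi, where 51.3% of all tested genes were. On the log2 scale the median difference of the 41 genes was 0.09, and that of all tested genes was 0.01. This displacement was smaller than the spread between the WT libraries. Measured as log2 CPM against the WT mean, the median of the 36 canonical genes was 0.01, 0.15 and -0.15 in the WT libraries and 0.03, 0.15 and 0.12 in the M1BP RNAi libraries. In WT replicate 3 none of the 36 lay above the WT mean, and in WT replicate 2 35 did, while in the M1BP RNAi libraries 23, 31 and 32 did.

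**Figure D3:**
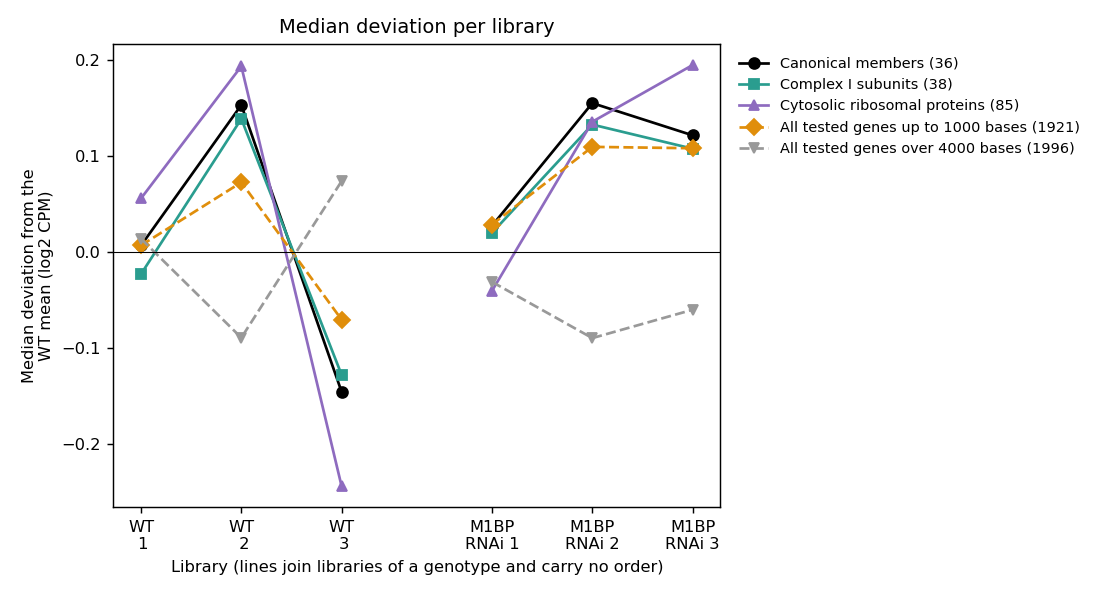
Median deviation from the WT mean (log2 CPM) in each library, for the canonical genes, Complex I subunits, cytosolic ribosomal proteins, and tested genes up to 1000 or over 4000 exonic bases. The canonical genes lie at 0.15 in WT replicate 2 and -0.15 in WT replicate 3, and the long genes move the other way.

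Other short transcripts were also highest in WT replicate 2 and lowest in WT replicate 3 among the WT libraries. The canonical genes had a median exonic length of 874 bases, against 1972 bases for all tested genes. The 1921 tested genes of up to 1000 bases stood at 0.01, 0.07 and -0.07 in WT against 0.03, 0.11 and 0.11 in M1BP RNAi, with a median log2 fold change of 0.07. The 1996 genes over 4000 bases had a median log2 fold change of -0.06. Among the canonical genes the median was 0.13 for the 23 of up to 1000 bases, 0.03 for the 9 of 1000 to 2000 bases and -0.04 for the 4 longer ones. When the trend with length was removed in each library, the median of the 41 genes was 0.04 and that of all tested genes 0.003. Above 0 were then 25 of the 41, and 5234 of all 10306 tested genes. The part of transcript length in the displacement was otherwise not tested.

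Complex II transcripts were close to WT. SdhB, the iron-sulphur subunit, had 5564, 6139 and 5512 normalised counts (counts scaled to the mean library size) in WT against 6116, 6702 and 6510 in M1BP RNAi. The M1BP RNAi libraries were higher on average, but 1 of them lay below WT replicate 2 (edgeR, 0.17 ± 0.065 SE on the log2 scale, adjusted p 0.19). SdhC, a membrane anchor, had 3364, 3862 and 3564 in WT against 3994, 4033 and 4044 in M1BP RNAi. Its groups did not overlap, and edgeR put the difference at 0.16 ± 0.066 (SE) on the log2 scale, adjusted p 0.207. SdhA was the lower one of the 4 canonical genes, with 18117, 18667 and 17331 in WT against 17145, 17836 and 17412 in M1BP RNAi (edgeR, -0.05 ± 0.055 SE on the log2 scale, adjusted p 0.675), and its groups overlapped. SdhD had a log2 fold change of 0.09 (SE 0.091).

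For Complex III, all 9 canonical genes had estimates above 0, with a median of 0.06. After removal of the length trend 3 of these 9 were above 0. In Complex II it was then 3 of the 4 canonical genes, in Complex IV 7 of 9 and in Complex V 8 of 13. UQCR-C2, core protein 2, which the study followed at later stages, had 14708, 16765 and 14690 normalised counts in WT against 15010, 15844 and 15815 in M1BP RNAi. Its M1BP RNAi values lay within the WT range, at 0.02 ± 0.066 (SE) on the log2 scale with an adjusted p of 0.921 in edgeR and an interval from 0.912-fold to 1.12-fold of WT. UQCR-C1 differed by 0.03 (SE 0.052) and UQCR-6.4 by 0.06 (SE 0.103) on the log2 scale. Cyt-c1, the haem subunit that reduces cytochrome c, was the other canonical gene besides SdhC whose groups did not overlap, at 0.11 ± 0.059 (SE) on the log2 scale with an adjusted p of 0.324 in edgeR.

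The canonical gene with the largest estimate was ox, which encodes a small accessory subunit of Complex III. It lies at 2R, 12757133 to 12757529 (dm6), with 331 exonic bases. Its normalised counts were 643, 856 and 603 in WT against 853, 1010 and 967 in M1BP RNAi. WT replicate 2 stood above the lowest M1BP RNAi library, so the groups overlapped. By edgeR the difference was 0.43 ± 0.136 (SE) on the log2 scale (unadjusted p 0.0105, adjusted p 0.118), a 1.35-fold difference with an interval from 1.09-fold to 1.66-fold. Without WT replicate 2 the adjusted p of ox was 0.0144 and its log2 fold change 0.59. With each library left out in turn, ox lay between 0.33 and 0.59 on the log2 scale, with an adjusted p between 0.0144 and 0.355 in edgeR. Of its exonic bases 41 are shared with mRpL18, a mitochondrial ribosomal protein gene on the other strand, itself at -0.06 ± 0.094 (SE) on that scale with an adjusted p of 0.759 in edgeR.

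Cytochrome c is encoded by a pair of neighbouring genes on 2L. Cyt-c-p, the one used throughout the body, had 5375, 5007 and 4677 normalised counts in WT against 5266, 5081 and 5629 in M1BP RNAi, and its groups overlapped (edgeR, 0.09 ± 0.070 SE on the log2 scale, adjusted p 0.529). Cyt-c-d, known for its role in the male germ line, had 22, 25 and 16 reads in WT against 30, 12 and 24 in M1BP RNAi. Per length Cyt-c-p was 299-fold above Cyt-c-d in WT and 291-fold above it in M1BP RNAi. Of the 837 exonic bases of Cyt-c-d, 305 are shared with CG31808 on the other strand, which had between 148 and 178 reads in WT. The part of CG31808 in the few reads of Cyt-c-d was not tested, so its own level may be lower.

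In Complex IV none of the 9 canonical genes had an unadjusted p under 0.05, 8 of the 9 estimates were above 0, and the median was 0.13. COX7A, the most abundant, had 10081, 11663 and 9097 normalised counts in WT against 10944, 11907 and 11873 in M1BP RNAi. The WT libraries spanned more than the distance between the group means (edgeR, 0.17 ± 0.087 SE on the log2 scale, adjusted p 0.308). With each library left out in turn, its adjusted p in edgeR lay between 0.0472, without WT replicate 2, and 0.639. COX7C was the one canonical gene below 0, with a log2 fold change of -0.03 (SE 0.107). The other 7 genes, among them COX4, COX5A and COX5B, lay between 126 RPKM for COX5B and 241 RPKM for COX5A in WT. Their differences from WT ran from 0.05 (SE 0.113) for COX5B to 0.17 (SE 0.088) for COX8 on the log2 scale, and the groups of each overlapped.

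In Complex V, 9 of the 13 canonical genes had estimates above 0 and 4 below, with a median of 0.06. Those below 0 were ATPsynbeta, blw and ATPsyngamma, of the F1 part, and ATPsynO, of the peripheral stalk. ATPsynbeta had 76745, 75840 and 68431 normalised counts in WT against 67504, 67109 and 70010 in M1BP RNAi, and WT replicate 3 lay among the M1BP RNAi libraries (edgeR, -0.11 ± 0.059 SE on the log2 scale, adjusted p 0.33). Of its exonic bases 191 are shared with CG11076 on the other strand, itself at 0.36 on that scale (adjusted p 0.0195, edgeR). The gene blw, which the study also followed at later stages, had 97735, 96367 and 87132 in WT against 94037, 90880 and 90056 in M1BP RNAi (edgeR, -0.03 ± 0.059 SE on the log2 scale, adjusted p 0.799). Its groups overlapped, and the interval ran from 0.893-fold to 1.07-fold of WT.

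The stalk and ring of Complex V gave similar values. ATPsynD, of the peripheral stalk that holds the head still, had 10945, 11936 and 9813 normalised counts in WT against 11874, 12471 and 12541 in M1BP RNAi. One M1BP RNAi library lay just below WT replicate 2, and by edgeR the difference was 0.17 ± 0.074 (SE) on the log2 scale (unadjusted p 0.0408, adjusted p 0.223). ATPsynC had 139975, 145580 and 121109 in WT against 135012, 137866 and 142099 in M1BP RNAi. Its log2 fold change was 0.03 (SE 0.070), with the M1BP RNAi libraries within the WT range. The other stalk genes were ATPsynO at -0.01 (SE 0.077), ATPsynB at 0.06 (SE 0.075) and ATPsynCF6 at 0.16 (SE 0.109) on that scale. The membrane accessory subunits e, f and g, which help ATP synthase to pair into dimers, are encoded by ATPsynE, ATPsynF and ATPsynG. They had differences of 0.15 (SE 0.112), 0.10 (SE 0.073) and 0.16 (SE 0.087), and the groups of each overlapped.

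The paralogues had few reads, and 5 of the 13 had enough reads to be tested. No read was counted for ATPsynGL or ATPsynCF6L in any of the 6 libraries. SdhAL had 2 reads in M1BP RNAi replicate 3 and none elsewhere, and UQCR-14L had 1 read in M1BP RNAi replicate 1 and none elsewhere. UQCR-11L had 1, 0 and 4 reads in WT against 0, 0 and 7 in M1BP RNAi. The detection limit of 3 reads equalled between 0.0579 and 0.0696 CPM, and lower levels were not detectable at this depth.

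The other untested paralogues had up to 16 reads. SdhBL had 0, 3 and 2 reads in WT against 5, 6 and 5 in M1BP RNAi, and these do not overlap but lie near the floor. COX6AL had 16, 1 and 10 in WT against 16, 6 and 9 in M1BP RNAi. COX7AL had 7, 3 and 8 in WT against 2, 12 and 6 in M1BP RNAi. Both overlapped between genotypes.

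The estimates furthest from 0 belonged to a pair of paralogues with few reads. ATPsynepsilonL, a paralogue of sun, lies at 3R, 10121773 to 10122320 (dm6). It had 13, 12 and 13 reads in WT against 30, 28 and 36 in M1BP RNAi, so every M1BP RNAi library was above every WT library. By edgeR the difference was 1.39 ± 0.385 (SE) on the log2 scale (unadjusted p 0.00502, adjusted p 0.0786), with an interval from 1.44-fold to 4.76-fold. Its WT level of 0.536 ± 0.0233 RPKM was 244-fold below that of sun.

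COX4L, a paralogue of COX4 at 2R, 5353994 to 5354723, had 5, 4 and 15 reads in WT against 19, 15 and 39 in M1BP RNAi. After scaling the groups did not overlap, at 4.6, 4.3 and 14.0 normalised counts in WT against 19.0, 16.2 and 39.9 in M1BP RNAi. By edgeR the difference was 1.69 ± 0.611 (SE) on the log2 scale (unadjusted p 0.0203, adjusted p 0.163), and without a library it lay between 1.19 and 2.46. Summed markers of the male germ line (bam, dj, Mst98Ca and vas, with Mst98Ca at or under 3 reads in every library) were between 4.02 and 6.78 CPM in WT and between 6.10 and 9.55 CPM in M1BP RNAi. Their part in the values of these paralogues was not tested.

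**Figure D4:**
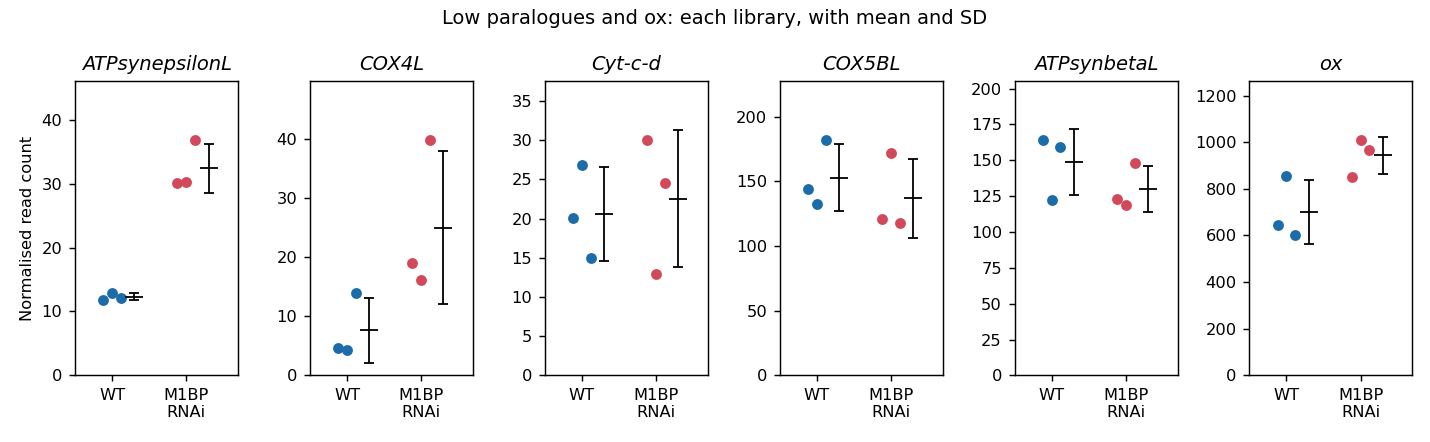
Normalised read count of the 5 tested paralogues and of ox in each library, WT in blue and M1BP RNAi in red, with the mean and SD in black and a separate axis from 0 for each gene. The groups are apart for ATPsynepsilonL and COX4L and overlap for the others.

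The remaining tested paralogues overlapped between genotypes. COX5BL had 158, 123 and 195 reads in WT against 121, 159 and 115 in M1BP RNAi (edgeR, -0.16 ± 0.229 SE on the log2 scale, adjusted p 0.739). All of its 647 exonic bases lie within CG9596 on the other strand, which had at least 1996 reads in each WT library. ATPsynbetaL had 180, 114 and 171 reads in WT against 123, 110 and 145 in M1BP RNAi, with a log2 fold change of -0.19 (SE 0.209). Over the 41 tested genes, 4 had groups that did not overlap with M1BP RNAi higher (SdhC, Cyt-c1, ATPsynepsilonL and COX4L), where 13.8% of all tested genes did, and 0 had groups apart with M1BP RNAi lower, where 12.3% did.

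Reads over shared exons limit some of these values. Of the 49 genes, 17 share exonic bases with another gene, 16 of them with a gene on the other strand. For 10 of them the shared part exceeds 10% of the exonic length, among them UQCR-6.4, ATPsyndelta and UQCR-14, the last of which lies entirely within exons of CG32576. The study names a stranded kit for its dissected flight muscle libraries, but a SMART-Seq kit with Nextera XT tagmentation for these myoblast libraries. The use of strand in counting was not given, and reads of such pairs cannot be told apart.

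The partner genes of the same complexes were counted in the same libraries. The 6 mitochondrially encoded subunits of Complex III to V had a median log2 fold change of -0.13 and a smallest adjusted p of 0.59 in edgeR, with 0 at an unadjusted p under 0.05 and 0 called by DESeq2. They varied more between libraries than the nuclear genes. Cytochrome b, of Complex III, had 8826, 12112 and 12770 normalised counts in WT against 8992, 8044 and 12913 in M1BP RNAi, so both genotypes spanned nearly the same range. Its gene is listed as CYTB.

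Of 39 assembly factors of Complex II to V, which build the complexes without being part of them, 37 were tested. 2 of the 37 were higher at an adjusted p of 0.05 and 0 were lower in edgeR, where 4.09% of all tested genes passed in either direction. Both belong to Complex IV. DESeq2 called 3 of the 37 at an adjusted p of 0.05, where it called 859 of all 10306 tested genes. Ccdc56, whose human counterpart COA3 helps to make COX1, had 3532, 3530 and 3444 normalised counts in WT against 4273, 4765 and 4664 in M1BP RNAi (edgeR, 0.38 ± 0.063 SE on the log2 scale, adjusted p 0.00898). CG44194 had 1606, 1626 and 1520 in WT against 1931, 2095 and 1969 in M1BP RNAi (edgeR, 0.34 ± 0.068 SE on the log2 scale, adjusted p 0.0255). For both, every M1BP RNAi library was above every WT library.

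Neither count belongs to a single gene. All exonic bases of Ccdc56 are shared with mtTFB1 on the same strand, and all those of CG44194 with CG17327, and each pair had the same fold change. With 1 library left out, Ccdc56 passed in 5 of 6 fits, and its adjusted p without M1BP RNAi replicate 2 was 0.0617. CG44194 passed in 1 of 6, and its adjusted p was 0.141 without M1BP RNAi replicate 2. The 37 assembly factors had a median of 0.10 on the log2 scale, beside 0.08 for 38 nuclear subunits of Complex I, 0.09 for 85 cytosolic ribosomal proteins and 0.16 for 72 mitochondrial ribosomal proteins. Of the 72 mitochondrial ribosomal proteins 64 were above 0, where 51.3% of all tested genes were. After removal of the length trend 57 were above 0, with a median of 0.08. At an adjusted p of 0.05 edgeR called 4 of the 72, where 4.09% of all tested genes passed. Past the study's threshold there was 1, where 0.475% of all tested genes passed.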

How the data were processed

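Raw counts for each gene were deposited by the authors in the layout of featureCounts, with column names that mark unique alignments to dm6. The aligner and the use of strand were not given in the sources used here. The submitters' processing notes list Subread 2.0.3. A second deposited table holds the authors' fold changes and p-values, which were not used, and only its gene symbols were read.

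SMART-Seq cDNA was amplified by 10 and 12 PCR cycles without molecular identifiers, so intervals cover the spread between libraries and not the number of original molecules. The RNA preparations were made in triplicate, and p-values set the difference between genotypes against the spread between these samples.

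Genes passing filterByExpr of edgeR 4.0.16 (minimum count 10, R 4.3.3) were fitted with TMM factors, glmQLFit and glmQLFTest, with genotype as the single term and Benjamini-Hochberg adjustment over all 10306 genes. Biological variation between libraries was 11.9% (edgeR's common coefficient). DESeq2 1.42.0 was an alternative. Normalised counts are counts scaled from each effective library size to the mean of these sizes, and log2 CPM used a prior count of 2. The length alternative subtracted from each library a lowess trend of span 0.3 on exonic length. The procedure was tested on simulated data.

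The subunit genes and the other lists were chosen with earlier results of these data known. Genes were named by a rule: M1BP, UQCR-C2, blw, for each complex and cytochrome c the highest and lowest WT level and the smallest p in each direction, those with an unadjusted p under 0.05, those whose groups did not overlap, and untested ones. Others were named after their values were seen. Of the assembly factors, 38 of 39 were matched.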

Additional observations from a re-analysis of the deposited data

How the results depend on the processing

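The number of subunit genes past an adjusted p of 0.05 was 0 in edgeR and 1 with DESeq2 (ox), and lay between 0 and 2 with a library left out. The 2 were ox and COX7A, without WT replicate 2. The median difference of the subunit genes, on the log2 scale, was 0.09, lay between 0.02 and 0.18 with a library left out, and was 0.04 after removal of the length trend. Over all tested genes, 49 passed the study's threshold, 172 with DESeq2, 99 without the filter on low counts, 223 at an adjusted p of 0.05 with a 1.5-fold change, and between 17 and 31 with a library left out. No pairing by replicate number was evident. Same-numbered libraries correlated at 0.03, -0.05 and -0.16, and differently numbered ones between -0.085 and 0.12. With 3 libraries of each genotype, such values cannot show whether same-numbered libraries were prepared together. With the replicate block 19 genes passed over all and 0 subunit genes, with a smallest adjusted p of 0.0742 for ox, and with the replicate block and the length trend together, a setting chosen after seeing the data, 26 and 0.

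Among the named genes 231 of the alternative values kept their direction and side of the threshold. Values near 0 changed sign. UQCR-C2 was -0.013 without the length trend, -0.012 with the block added, and between -0.024 and 0.076 with a library left out. Without the length trend UQCR-C1 was -0.0062 and UQCR-6.4 -0.012, and with the block added -0.0062 and -0.013. With a library left out UQCR-6.4 lay between -0.013 and 0.13, Cyt-c-d between -0.13 and 0.40 and ATPsynC between -0.053 and 0.078. The cause was not tested.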
